A study of Homo sapiens with 4 samples.

Results

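The genes described here encode the enzymes that attach ubiquitin, the enzymes that remove it, and the proteasome, in LP-1 cells with and without HRP2 knockdown. They were taken from the authors' deposited comparison tables by name, from rows with symbols of E1 and E2 enzymes (UBA followed by a number, or UBE), ubiquitin ligases and ligase subunits (RNF, TRIM and CUL followed by a number, FBX, KLHL, HERC, HECTD), deubiquitinases (USP followed by a number, OTUD) or proteasome genes (PSMA to PSMG followed by a number). Genes that share only the first letters, such as UBALD2, are not part of the set. The text covers 13 of the 684 genes and 28 of the 1040 transcripts in the tables, from 36 different gene symbols. A row is in a table only when the authors' Q value, their p-value corrected over many tests, was under 0.05. The members were thus chosen by the Q values of the knockdown comparison, and the fold changes from the same comparison are given as a description, without a further test. In the authors' deposited tables the members just inside the threshold were UBA3 (Q = 0.0434) and UBE2Q1 (Q = 0.0426) among genes and FBXW7 (Q = 0.0483) and HERC2 (Q = 0.0471) among transcripts; rows just outside it have no value.

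LP-1 is an established human multiple myeloma line. The knockdown group, 2 libraries, was made with a lentiviral guide RNA aimed at HRP2, a chromatin reader whose gene is HDGFL2, and the control group, also 2 libraries, with a non-target guide. Whether the guide edited or repressed the gene is not in the labels. They also do not tie the libraries to separate cultures, and the authors' Q values may then reflect technical spread. HDGFL2 itself stood at -1.37 in the authors' deposited table (log2 fold change of the knockdown relative to control, Q = 2.99e-13). In bulk RNA, a shift in the mix of cells and less RNA per cell cannot be told apart. No value per library was used here, so no fold change carries an SD and the depth behind each value is unknown. The authors' deposited table held 3 of 7 plasma cell marker genes, each lower: IRF4 at -0.63, TNFRSF17 at -0.48 and SDC1 at -0.45 on the log2 scale. None of 11 markers of other cell types was in it. Genes outside the table have no value, so this does not check the cell type, and the part of these markers' decrease in the members' values was not tested.

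Ubiquitin is joined to proteins in steps. An E1 enzyme activates it, an E2 enzyme carries it, and an E3 ligase selects the protein to be marked. Cullins, F-box and KLHL proteins are parts of larger ligases, and cullins are switched on by NEDD8, a ubiquitin-like protein with its own E1 and E2. Deubiquitinases take ubiquitin off, and the proteasome degrades marked proteins. Plasma cells and myeloma cells, which secrete large amounts of antibody, lean on this system and are sensitive to proteasome inhibitors, the drugs named in the series title.

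In the authors' deposited table the called E1, both E2 enzymes, the cullin CUL1 and both proteasome genes were higher in the knockdown, while the deubiquitinase USP22, the readthrough RNF103-CHMP3 and 5 of 6 ligases were lower. The list as a whole was called at about the background share: 13 of the 463 mRNA genes of these names that the authors list were called, or 2.81%, beside 2.81% of all 24237 listed mRNA genes. Of the 463, 6 were called higher (1.30%, beside 1.49% of all) and 7 lower (1.51%, beside 1.32%). Listed genes need not have been expressed or tested. Among all 684 called genes 52.8% were higher, against 6 of 13 here (46.2%). The changes were small and near the threshold. The median absolute log2 fold change was 0.56 for the 13 member genes and 0.70 for all called genes, and 2 of 13 (15.4%) had a Q value under 0.01 against 37.3% of all called genes. An absolute log2 fold change of 1 or more was given for 2 of 13, beside 21.8%.

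**Figure D1:**
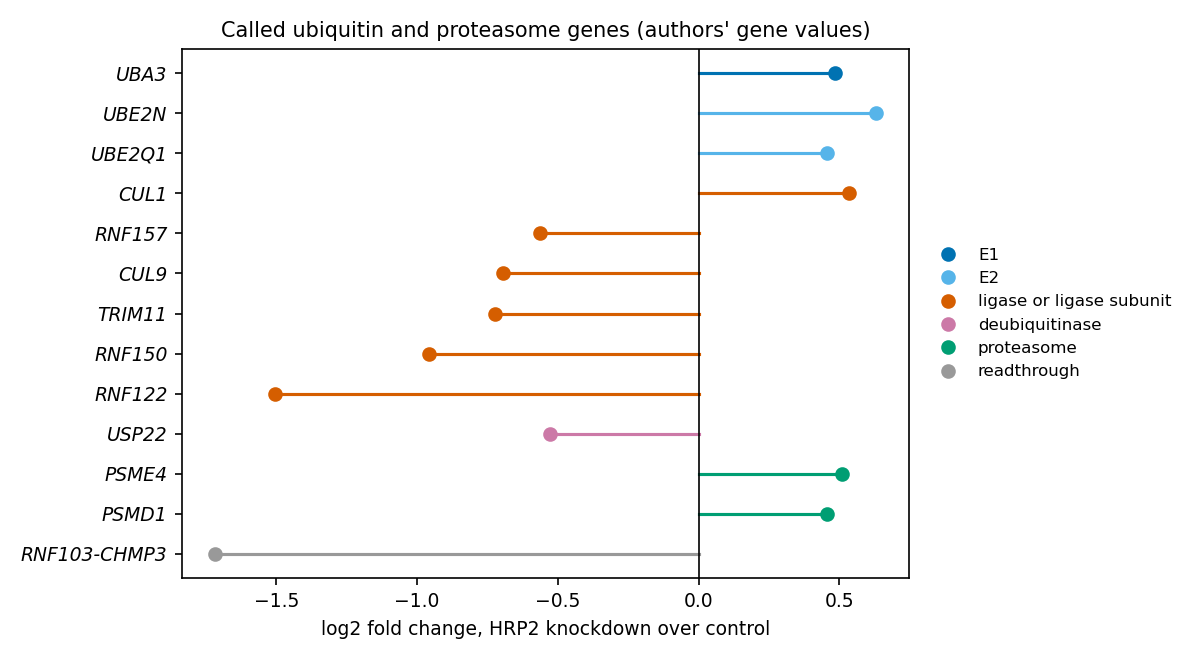
Log2 fold change (knockdown relative to control) for the 13 called genes, as deposited by the authors, 1 line per gene, coloured by role and with no error because the authors give none. The 6 higher genes lie between 0.45 and 0.63, and the 7 lower genes between -0.53 and -1.72.

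The only called E1 was UBA3 (gene ID 9039), the catalytic subunit of the enzyme that activates NEDD8. Its log2 fold change in the authors' deposited table was 0.48 (1.40 times control, Q = 0.0434). UBA1, the main E1 for ubiquitin, was among the 5 other E1 genes listed and not called. Of 9 genes of NEDD8 conjugation UBA3 was the 1 called, a count too small to set against the 2.81% of all listed mRNA genes. CUL1 (gene ID 8454), the scaffold of the SCF ligases and a protein to which NEDD8 is joined, was raised to 1.45 times the control level in the same deposited table (log2 fold change 0.54, Q = 0.0335). Its core partners SKP1 and RBX1 were not called.

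Among 37 listed E2 genes, 2 were called as genes (5.41%, beside 2.81% of all listed mRNA genes). UBE2N (gene ID 7334), an E2 that builds non-degradative chains in signalling and DNA repair, had the largest increase of the 13 genes, 0.63 on the log2 scale in the authors' deposited table (1.55 times control, Q = 0.0184). Its words were shared to 10.1% with other genes, among them the copy UBE2NL. UBE2N works with an inactive partner, UBE2V1 or UBE2V2. Neither partner was called as a gene, while the authors' deposited transcript table held 1 predicted transcript of UBE2V2 at 1.90 on the log2 scale (3.74 times control, Q = 0.000233). UBE2Q1 (gene ID 55585), a further E2, lay at 0.46 in the deposited gene table (Q = 0.0426). UBE2H, whose product works with the CTLH ligase, was called as a transcript only and was lower, at -0.90 in the deposited transcript table (0.536 times control, Q = 0.00110).

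The largest decrease of a single gene was that of a ligase. RNF122 (gene ID 79845), a membrane-bound RING ligase, fell to 0.353 times the control level in the authors' deposited table (log2 fold change -1.50, Q = 1.02e-06), and by Q value it ranked 25 among the 684 called genes. The deposited transcript value of RNF122 was -1.51 (Q = 0.0369), close to the gene value. Both come from the same libraries, and RefSeq lists 2 transcripts of RNF122, so they are not independent. RNF150 (gene ID 57484), another membrane-bound RING protein, was at -0.96 there (0.515 times control, Q = 0.0144). TRIM11 (gene ID 81559), a tripartite motif ligase with a part in the clearance of misfolded proteins, had -0.72 in the deposited gene table (Q = 0.00559); with RNF122 it was 1 of the 2 member genes with a Q value under 0.01. CUL9 (gene ID 23113), a cullin that binds p53 in the cytoplasm, lay at -0.70 (Q = 0.0324) and RNF157 (gene ID 114804), a RING ligase studied in neurons, at -0.56 (Q = 0.0362) in the authors' deposited table.

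By family, 3 of 85 listed RNF genes, 1 of 74 TRIM genes, 2 of 8 cullins and none of 62 F-box, 37 KLHL or 16 HERC, HECTD, UBE3 and UBE4 genes were called. Across all ligases 6 of 282 listed genes were called (2.13%), beside the 2.81% of all mRNA genes. RNF103-CHMP3 (gene ID 100526767) carries an RNF name but is a readthrough of RNF103 into CHMP3, a membrane remodelling gene. It had the largest decrease of the 13, at -1.72 on the log2 scale in the authors' deposited table (Q = 0.0208). Of its 31-base words 76.7% occurred in other genes, chiefly CHMP3, and neither CHMP3 nor RNF103 was called on its own, so its value cannot be assigned to 1 gene.

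**Figure D2:**
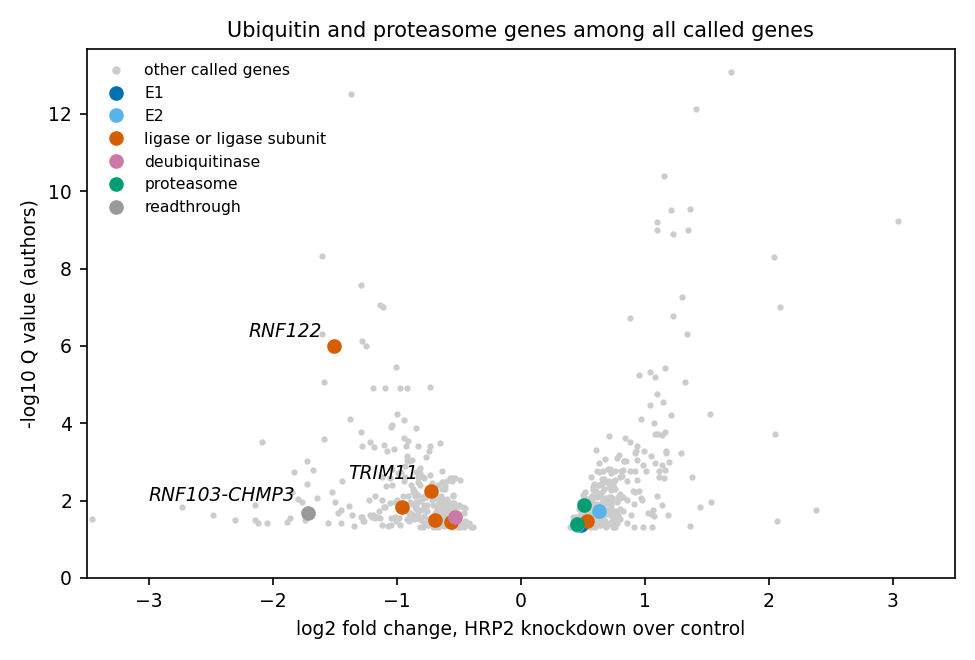
Log2 fold change (horizontal) and -log10 of the authors' Q value (vertical) for called genes, with the 13 ubiquitin and proteasome genes coloured by role; 7 other called genes lie beyond the limits of 3.5 on the horizontal axis. RNF122 at -1.50 stands apart from the rest of the coloured points, most of which lie near the lower edge set by the threshold.

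Deubiquitinases and the proteasome together had 3 called genes. USP22 (gene ID 23326), the catalytic subunit of the SAGA module that removes ubiquitin from histone H2B, was the 1 called gene among 85 listed deubiquitinases (1.18%, beside 2.81% of all listed mRNA genes), at -0.53 in the authors' deposited table (0.693 times control, Q = 0.0273). Of 48 listed proteasome genes, 2 were called (4.17%, beside the same 2.81%). PSMD1 (gene ID 5707), a large scaffold subunit of the regulatory particle, was at 0.45 in the deposited table (1.37 times control, Q = 0.0410). PSME4 (gene ID 23198), an activator that caps the core particle in place of the regulatory particle, had 0.51 there (1.42 times control, Q = 0.0133). None of the 19 listed PSMA and PSMB genes, which form the core particle bound by proteasome inhibitors, was called, and none of them has a value.

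The promoters of these 2 proteasome genes are shown because both hold the element TGACNNNGC, the kind of site through which NRF1, encoded by NFE2L1, is known to drive proteasome genes. Each runs 5′ to 3′ from 250 bases before to 50 bases after the gene start, from RefSeq on GRCh38.p14, with the element in capitals: PSMD1 at chr2:231056617-231056916 (plus strand) and PSME4 at chr2:53970944-53971243 (minus strand).
PSMD1: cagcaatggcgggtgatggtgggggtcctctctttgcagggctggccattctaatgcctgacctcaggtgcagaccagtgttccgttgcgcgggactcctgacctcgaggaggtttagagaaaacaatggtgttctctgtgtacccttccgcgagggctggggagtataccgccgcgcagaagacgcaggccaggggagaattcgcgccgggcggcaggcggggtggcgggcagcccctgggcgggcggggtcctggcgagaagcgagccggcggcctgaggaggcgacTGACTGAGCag
PSME4: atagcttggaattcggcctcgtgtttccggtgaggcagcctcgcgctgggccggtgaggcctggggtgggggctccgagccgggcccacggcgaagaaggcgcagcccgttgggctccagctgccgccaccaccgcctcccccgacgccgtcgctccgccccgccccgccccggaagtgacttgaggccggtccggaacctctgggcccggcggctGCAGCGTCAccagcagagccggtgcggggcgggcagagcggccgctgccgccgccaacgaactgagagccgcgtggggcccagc

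In PSMD1 the element begins 39 bases after the gene start, and in PSME4 it begins 34 bases before it and reads on the opposite strand. The RefSeq table gave a promoter for 10 of the 13 member genes, 14 windows in all, since CUL1 has several starts. Searched on both strands, with overlaps between motifs left in, TGACNNNGC was found in those 2 windows only, which is 14.3% of 14 beside 13.9% of 21845 windows of listed mRNA genes. It was found in 28.3% of 53 windows of all listed proteasome genes. Counted by gene, that was 15 of 43 proteasome genes with a promoter (34.9%), beside 18.1% of listed mRNA genes with a promoter. Most of the 15 were not called. For the member genes it was 2 of 10 (20%). NFE2L1 was not called as a gene, and a part of NRF1 in these values was not tested. The core heat shock element TTCNNGAA was found in none of the 14 windows and in 6.74% of windows of listed mRNA genes. CGCG was found in 12 of 14 windows, against 62.7% of windows of listed mRNA genes and 75.7% of 824 windows of called genes. The windows of CUL1 are not independent. Counted by gene, CGCG was found in 9 of 10 members (90%), beside 87.1% of called and 70.7% of listed mRNA genes. The median GC content was 71% for member windows, 65.7% for those of called genes and 62.3% for those of listed mRNA genes. A match is a string of letters and not a measured binding site.

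Higher and lower members differed in base composition, as higher and lower called genes do in general. The 6 higher genes had a median transcript GC content of 43.4% (39.2% for UBA3 to 50.2% for UBE2Q1), and the 7 lower genes 54.5% (50.1% for RNF150 to 60.5% for TRIM11). The groups overlapped only at RNF150 and UBE2Q1. Over all called genes with a GC value the medians were 46.7% for 357 higher and 57.5% for 319 lower genes. Below the median GC content of called genes, 50.4%, 6 of 7 members were higher, against 74.6% of 338 called genes, and above it 0 of 6 members against 31.1% of 338. The part of base composition in the difference between roles was not tested.

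**Figure D3:**
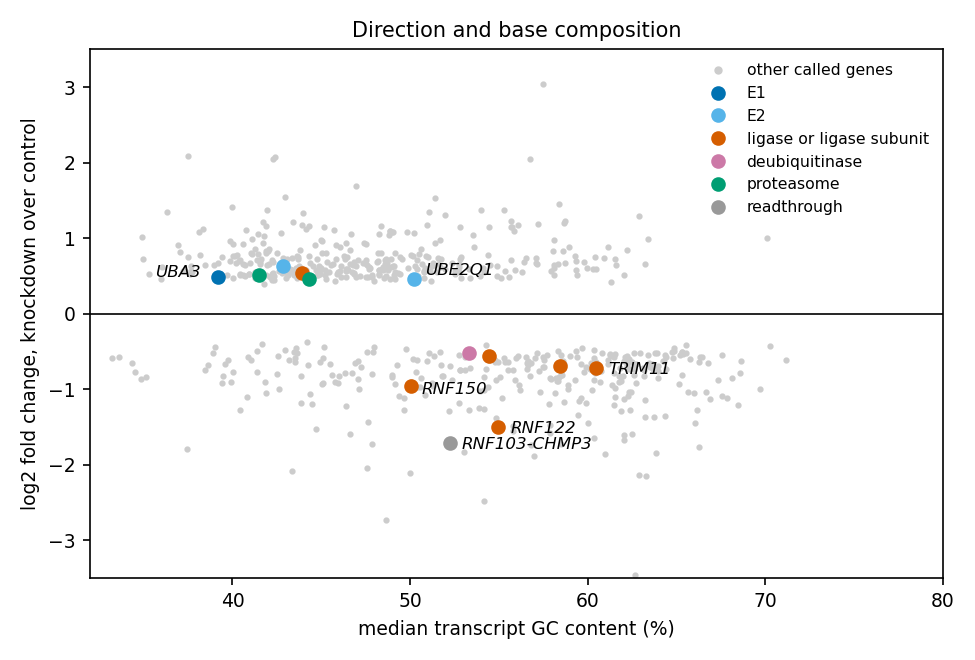
Median GC content of each gene's transcripts in percent (horizontal) against the authors' log2 fold change (vertical), with called genes in grey, the 13 ubiquitin and proteasome genes coloured by role, and genes beyond 3.5 on the vertical axis left out. The higher members lie at 39.2% to 50.2% GC and the lower members at 50.1% to 60.5%.

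Other genes of the ubiquitin system, 287 from a list of ligases, ligase subunits, deubiquitinases, ubiquitin-like modifiers and shuttle factors outside the name pattern, had 9 called (3.14%, beside 2.81% of all mRNA genes). Of these, 4 were higher and 5 lower in the authors' deposited table. SYVN1, the ligase of endoplasmic reticulum-associated degradation, was the lowest at -0.81 (Q = 0.00142) in the deposited table. HDAC6, a cytoplasmic deacetylase that binds ubiquitin, lay at -0.71, SPSB3, a substrate receptor of cullin ligases, at -0.66, BRCA1, a RING ligase of DNA repair, at -0.62 and RBCK1, a subunit of the linear chain ligase, at -0.52 in the same deposited table. The higher genes were UCHL5, a deubiquitinase bound to the regulatory particle of the proteasome, at 0.52, DCAF6, a cullin substrate receptor, at 0.48, ANAPC1, the scaffold of the anaphase-promoting complex, at 0.46 and MYSM1, a histone H2A deubiquitinase, at 0.46 in the authors' deposited table. Among the 9 the higher genes lay at a GC content of 36.0% to 45.3%. Of the 5 lower genes, 4 lay at 57.5% to 63.8% and BRCA1 at 43.2%. The lower genes named above as left off the list did not share this split. PCGF5 lay at 33.6%, SEL1L at 41.0%, SH3RF1 at 47.1%, KLHDC2 at 47.9% and TMEM129 at 64.4%.

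The transcript table held mostly other genes. It held transcripts of 25 genes of the set, where 463 mRNA genes of these names are listed. All called transcripts came from 879 symbols, where 24237 mRNA genes are listed. Of the 25 genes with a called member transcript, 2 were also called as genes: RNF122 and TRIM11, each in the same direction. This overlap was not counted over the 879 symbols of all called transcripts. It can therefore not be read as particular to these genes. Of the 28 transcripts, 13 were higher and 15 lower (46.4% higher, beside 51.0% of all called transcripts). Their sizes fell into the same classes as those of the whole table. An absolute log2 fold change under 6 was given for 4 of 28, beside 20.9% of all called transcripts, values of 6 to 13 for 22, beside 71.7%, and 20 or more for 2, beside 7.4%. Whether a group was listed at 0 for the transcripts at 6 or more is not known without values per library, so no ratio is given for them. Of the 22 at 6 to 13, 10 were higher (45.5%, beside 46.5% of all called transcripts of that size), and both at 20 or more were higher, beside 77.9%.

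Besides those of RNF122, UBE2H and UBE2V2, the remaining transcript under 6 was 1 of HERC2, a giant HECT ligase, at -0.88 in the authors' deposited transcript table (0.545 times control, Q = 0.0471). HERC2 was not called as a gene, and RefSeq lists 23 transcripts for it. Among the 4 transcripts under 6, UBE2V2 was the 1 higher, against 56.7% higher among all called transcripts of that size.

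Ligases gave 14 transcripts of 13 genes, where 282 ligase genes are listed. Of the 14, 6 were higher and 8 lower, beside 51.0% higher among all called transcripts. RNF19A, a ligase of the RING-between-RING type, was the 1 gene with opposed calls: its curated transcript NM_001280539.1 stood at 23.64 (Q = 2.66e-08) and its predicted transcript XM_017013303.2 at -10.20 (Q = 4.84e-06) in the authors' deposited transcript table. RNF19A was not called as a gene. The lowest of all 28 was a transcript of RNF123, the catalytic subunit of the KPC ligase, at -11.65 (Q = 3.52e-08), and the highest ligase transcript after RNF19A was one of RNF167, a lysosomal membrane ligase, at 10.87 (Q = 7.99e-05) in the deposited transcript table. TRIM11 had a predicted transcript at -9.002 in that deposited table, where the deposited gene value was -0.72. Further higher ligase transcripts came from FBXO30, FBXO42, KLHL24 and RNF41, and further lower ones from FBXW7, the substrate receptor for cyclin E and MYC, RNF40, a histone H2B ligase, and TRIM32.

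Deubiquitinases gave 10 transcripts of 8 genes, where 85 deubiquitinase genes are listed. Of the 10, 6 were higher and 4 lower, beside 51.0% higher among all called transcripts. All 10 were at an absolute value of at least 6, while 20.9% of all called transcripts were under 6. USP36, a nucleolar deubiquitinase, had 3 called transcripts and all were lower, at -10.51 (Q = 1.03e-06), -9.58 (Q = 0.000102) and -9.40 (Q = 0.000392) in the authors' deposited transcript table. All 3 were predicted records of a gene with 35 transcripts in RefSeq, and they share 1 locus, so they are not independent. USP7, which stabilises MDM2, had a curated transcript at 23.55 (Q = 0.000207) in the same deposited table. Transcripts of OTUD5, OTUD7B, USP13, USP19 and USP25 were higher and 1 of USP32 was lower. The proteasome gave 2 transcripts of 2 genes, where 48 proteasome genes are listed, and both were lower. PSMD4, the ubiquitin receptor of the regulatory particle, was at -9.10 (Q = 0.00197) and PSMD12, a lid subunit, at -9.11 (Q = 0.00130) in the deposited transcript table. Neither gene was called, and RefSeq lists 2 transcripts for PSMD4 and 4 for PSMD12. A value of 1 transcript does not give the direction of its gene. These values can therefore not be set against the gene values of PSMD1 and PSME4.

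**Figure D4:**
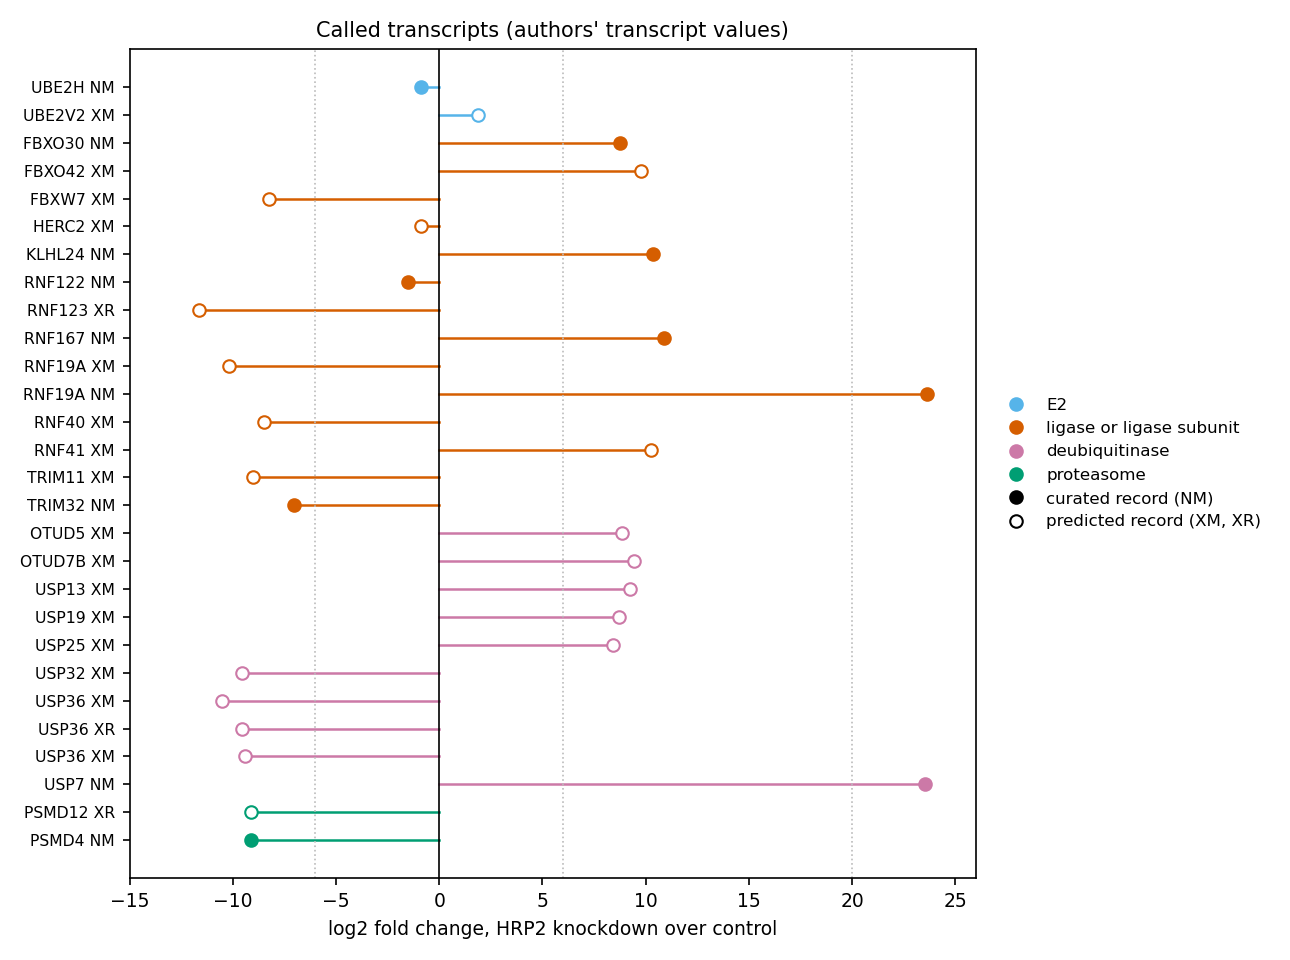
Log2 fold change (knockdown relative to control) for the 28 called transcripts, as deposited by the authors, 1 line per transcript, with filled points for curated RefSeq records and open points for predicted ones, and dotted lines at -6, 6 and 20. The 4 small changes are those of UBE2H, UBE2V2, HERC2 and RNF122, and the 2 above 20 are those of RNF19A and USP7.

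Predicted records made up much of this set. Of the 24 member transcripts at 6 or more, 17 carried the RefSeq prefixes of predicted transcripts (70.8%), beside 60.4% of all 823 called transcripts of that size, and of the 4 under 6 it was 2, beside 39.2% of 217. Of the 28 member transcripts 3 had the prefix of non-coding models, beside 63 of all 1040 called transcripts. The 3 were those of RNF123, PSMD12 and USP36, although the authors' deposited table types them as mRNA.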

How the data were processed

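RNA of 4 LP-1 libraries, 2 per group, was sequenced after library preparation by BGI protocols, per the labels' protocols. The submitters' processing notes name BWA, Bowtie2, RSEM and hg19 without roles or versions, with annotation, strandedness, filters, normalization and the authors' test not given in the sources used here. The log2 fold changes and Q values (adjusted p-values) are as deposited by the authors; no column of a single sample was used, so replicate error and depth are unknown and no test was run.

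Members were matched by symbol, with some matching rows not reported here, and grouped into roles by name family (Python 3.11.15, pandas 2.3.3). The members and lists were chosen with earlier results of these data known. Every member gene and every called gene of the pathway list was named. Transcripts at an absolute log2 fold change under 6 were named too, and larger ones were given values when their gene had several member transcripts or was called, or when among the 3 highest or 3 lowest; the proteasome transcripts were added after their values were seen. GC content was the median over a gene's protein-coding GENCODE 29 transcripts, and shared sequence the percent of 31-base words of the longest one found in other genes. Promoters came from RefSeq. Counting and motif search were tested on simulated data. Alternatives were limits on the Q value and on the fold change, transcripts counted once per gene, older symbols, and leaving out readthrough or (added after seeing the data) shared-sequence genes.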

Additional observations from a re-analysis of the deposited data

How the results depend on the processing

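With a Q value under 0.01, 2 member genes were left (TRIM11 and RNF122) and 0 of them were higher; with the limit of 1 or more on the absolute log2 fold change, 2 were left (RNF122 and RNF103-CHMP3) and again 0 were higher. All 6 higher genes therefore rest on Q values between 0.01 and 0.05 and on changes under 1. Of the other pathway genes on the list 2 were left at a Q value under 0.01. Without readthrough rows, or without genes sharing at least 50% of their words, 12 member genes were left, 6 of them higher. Keeping transcripts with an absolute log2 fold change under 6 left 4, of which 1 was higher; fewer rows pass each of these limits by construction. The other settings left the counts within 1.5 times. No paired analysis was possible because the tables used hold no value per library, and leaving out a library could not be run for the same reason. The depth of the libraries is unknown.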
